A study of Mus musculus with 30 samples.

Results

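Of 79 genes with a cytosolic ribosomal protein name in the RefSeq annotation, 37 had a named probe on these arrays. These 37 are the members, each read by 1 named probe among the 17997 probes tested. They were chosen from 6028 genes with a platform symbol. A gene was taken where its platform symbol was Rpl, Rps or Rplp followed by a number, or Rpsa. Rpl3, its muscle paralog Rpl3l and the S6 kinases were left out by the same rule. Of the 37 members, 23 encode proteins of the large (60S) subunit and 14 of the small (40S) subunit. Every member was detected on all 30 arrays. The rule used symbols only, but symbols are given only for probes of the study's processed table. By the methods, that table kept probes present at every age and, for a gene with several probes, the one brightest at P1. Membership therefore passed through signal, and the detection on all arrays follows largely from that choice. The 17997 tested probes were not chosen in this way. Genes such as Rpsa, Rps6, Rps27a, Rps27, Rpl5, Rpl11 and Rpl37a had no named probe here and are called not measured.

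Total RNA was from cardiac ventricles of male mice of an FVB/B6 hybrid strain at postnatal days 1, 7, 14, 30 and 60 (P1 to P60). Controls carried the MCK-Cre transgene alone, and Sox6 KO mice carried 2 floxed Sox6 alleles together with the same transgene (Sox6loxp/loxp; MCK-Cre), so Cre was present in both genotypes. MCK-Cre acts in heart and skeletal muscle cells, and the other cells of the ventricle are not its target. Each of the 10 groups had 3 arrays, given as replicates 1 to 3, on 1-colour Illumina MouseWG-6 v2.0 bead arrays. Sox6 encodes an SRY-box transcription factor, and no named probe reads it here, so its loss was not checked on the arrays.

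Each ribosome is built from 1 copy of nearly every ribosomal protein around its ribosomal RNAs. The 40S subunit reads the mRNA codons, and the 60S subunit joins the amino acids and holds the exit tunnel for the new protein. The mRNAs of these proteins form a class known as terminal oligopyrimidine (TOP) mRNAs: in vertebrates they begin with a C and a short run of pyrimidines at the cap, which places their translation under mTORC1 and LARP1. In the heart, cardiomyocytes divide until shortly after birth and then grow mainly in size, a period in which the demand for ribosomes changes.

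Windows of 30 bases around the annotated start are shown for 6 members because they carry, or lack, the pyrimidine run at the start, and because these 6 differ in how far their signal fell. RefSeq promoters of GRCm38.p6 were matched for 32 of the 37 members. Rpl30, Rpl32, Rplp1, Rps14 and Rps29 had no entry. Each window holds 12 bases before the start and 18 from it on, and the capitals mark an unbroken run of at least 8 C or T bases that touches a base within 5 of the start.
Rpl27a (chr7:109519183-109519212, + strand): ttcgtgagCTCCTCCCTTTTCCCTTTCTgc
Rpl13a (chr7:45128728-45128757, - strand): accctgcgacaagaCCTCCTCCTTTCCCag
Rps10 (chr17:27635227-27635256, - strand): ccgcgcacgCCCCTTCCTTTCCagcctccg
Rpl35 (chr2:39005114-39005143, - strand): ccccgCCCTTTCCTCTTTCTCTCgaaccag
Rpl36a (chrX:134585642-134585671, + strand): cacccaggcaccgcctataaacttccgttg
Rpl22 (chr4:152324424-152324453, + strand): tgcttctggaatgttccagctcccactgac
At any listed start of the gene such a run was present in 12 of the 32 members (37.5%) and in 11.4% of all 27025 genes with promoters of the same length. The annotated start can lie some bases from the cap site in use, so a window without capitals says only that these letters are not there.

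A second sequence was looked for in the whole 300 bases from 250 before the start to 50 from it on. The letters CCGGAAG, the core bound by ETS family factors such as GABPA, were present on either strand in 15 of the 32 members (46.9%) and in 9.93% of all genes. They hold G and A, so they cannot lie inside a pyrimidine run. The TATA box letters TATAAA were present in 5 members (15.6%) and 15.7% of all genes, and the YY1 core AAGATGGC in 2 members (6.25%) and 3.19%, both on either strand. CCGGAAG lies inside the 30-base window of Rpl26, Rpl31, Rpl34 and Rps27l, on the opposite strand in Rpl34, and is in capitals below for Rpl26 and Rps27l as examples.
Rpl26 (chr11:68901554-68901583, + strand): gcggcaacttacagaaCCGGAAGtcgcgtg
Rps27l (chr9:66946074-66946103, + strand): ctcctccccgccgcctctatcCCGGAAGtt
The size of later changes was compared with and without each sequence, as a description. From control P1 to P60 the median log2 change was -0.60 over the 12 members with the run and -0.61 over the 20 without it, and it was -0.61 over the 15 members with CCGGAAG and -0.57 over the 17 without it. From control P7 to P14 the medians were -0.14 with the run and -0.07 without it, and -0.12 with CCGGAAG and -0.10 without it. For the KO minus control difference at P30 they were -0.19 with the run and -0.14 without it, and -0.22 with CCGGAAG and -0.12 without it. From Sox6 KO P1 to P60 they were -0.56 with the run and -0.59 without it, and -0.56 with CCGGAAG and -0.66 without it. The ranges with and without each sequence overlapped in every comparison.

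Signals are log2 intensities after quantile normalization over the 30 arrays, where a difference of 1 is a doubling. A change was called at an adjusted p under 0.05 in limma's moderated test (Benjamini-Hochberg over all 17997 probes, two-sided). Levels of different probes cannot be set against each other. Ribosomal protein genes also have many processed pseudogenes, and whether a probe reads these as well is not given in the sources used here. In whole ventricle, fewer cells of a type and less RNA per cell cannot be told apart. All arrays of a group correlated at 0.98 or more over the probes tested, and no array was a copy of another.

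The ribosomal protein mRNAs fell together over the first 2 months of control hearts. The mean signal of the 37 members was 13.22 to 13.35 on the 3 P1 arrays, 13.04 to 13.14 on those of P7, 12.91 to 12.97 on those of P14, 12.83 to 12.92 on those of P30 and 12.59 to 12.69 on those of P60. These ranges did not overlap from P1 to P7, from P7 to P14 or from P30 to P60, and overlapped between P14 and P30. The members held 3.97% ± 0.34 (SD, n = 3) of the raw intensity of all tested probes at P1 and 2.63% ± 0.08 (SD, n = 3) at P60. Of the 37 members, 33 had their highest control mean at P1 and 29 their lowest at P60.

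**Figure D1:**
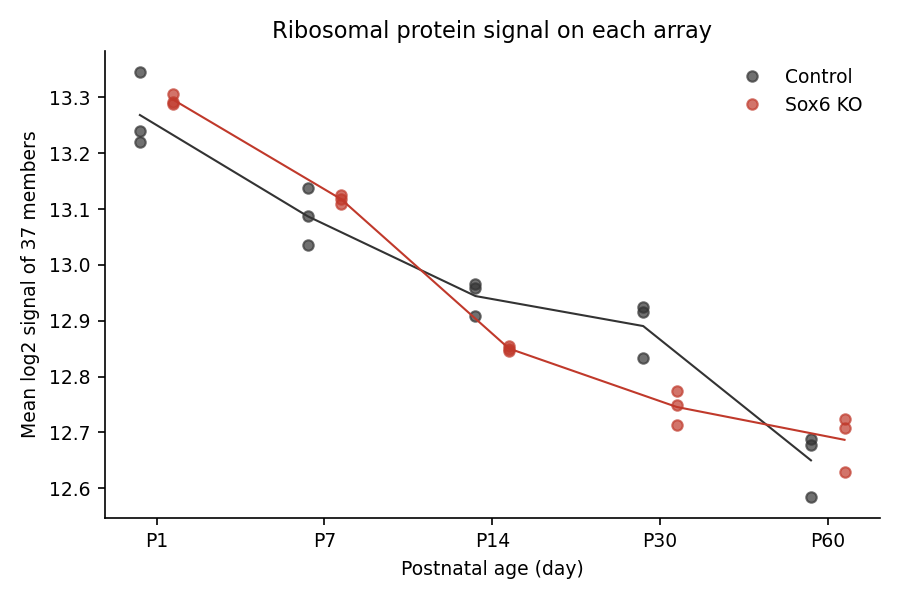
Mean log2 signal of the 37 members (y axis) on each array by postnatal age (x axis); points are arrays, lines join the means of 3 arrays, control in black and Sox6 KO in red. The signal fell from 13.27 to 12.65 in control and from 13.30 to 12.69 in Sox6 KO hearts, and the arrays of the genotypes were apart at P14 and at P30.

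Between control P1 and P60, 35 of the 37 members were lower and 0 were higher, where 27.2% of all tested probes were lower and 27.6% higher. The median change of the members was -0.58 against -0.01 over all probes. The arrays of P1 and P60 did not overlap for 36 members, the 35 lower ones and Rpl22, and for 58.1% of all probes. With the added condition of a 1.5-fold change and an adjusted p under 0.01, the thresholds of the study's methods, 18 members were lower, against 10.2% of all probes. The number of 35 was the same when each P1 or P60 array was left out in turn. Unlike all tested probes, the members came from a table that, for a gene with several probes, took the brightest at P1.

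Rpl36a, a 60S protein near the exit site of transfer RNA, fell most. Its 3 control arrays read 12.50, 12.83 and 12.59 at P1 and 11.56, 11.36 and 11.42 at P60. Every P60 array was below every P1 array, and the fall was 2.29-fold (log2 -1.19 ± 0.10 SE, adjusted p = 4.46e-11).

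Rpl10a, a protein of the 60S L1 stalk that moves with the leaving transfer RNA, read 13.78, 13.61 and 13.71 at P1 and 12.62, 12.43 and 12.55 at P60. It fell 2.25-fold (log2 -1.17 ± 0.07 SE, adjusted p = 6.67e-14). In Sox6 KO hearts the same probe read 13.80, 13.93 and 13.76 at P1 and 12.41, 12.50 and 12.46 at P60, a 2.59-fold fall that was the largest of the KO series.

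The 40S protein Rps16, whose tail reaches the transfer RNA, read 13.085, 13.440 and 13.004 at control P1 and 12.186, 11.994 and 11.949 at P60, a 2.19-fold fall (adjusted p = 5.05e-10). Rps10, a 40S protein near the mRNA entry side, fell 1.99-fold (adjusted p = 5.17e-09). Of the 60S members, Rpl32 fell 2.13-fold, Rpl39, a short protein of the exit tunnel, 2.09-fold, Rpl13a, which also silences some mRNAs outside the ribosome in human cells, 2.06-fold and Rpl28 1.89-fold. None of these 8 had overlapping arrays between the ages.

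The P stalk is the part of the 60S subunit that recruits elongation factors. Rplp0, which anchors the stalk, changed by -0.39 and Rplp1 by -0.43 on the log2 scale, less than the median member, and Rplp2 by -0.84, more than it. The Rplp0 probe was the dimmest of all members, at a mean log2 signal of 7.94 where the detection limit of an array lay between 6.69 and 7.12. Rpl41 and Rps29, with Rplp1 the brightest members, fell by 0.61 and 0.32. The brightest member signal was a raw intensity of 54829, where the brightest probe of any gene reached 61196.3. Across the 37 genes, which are not independent replicates and share arrays, the mean signal and the control P1 to P60 change had a Spearman correlation of 0.13, and with the KO P1 to P60 change it was 0.36.

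Rps27l, a paralog of Rps27 that is also a p53 target, fell by 0.58 (adjusted p = 8.06e-07). Its parent gene was not measured. The smallest called falls were those of Rpl9, at -0.29 (adjusted p = 0.000636), and Rpl23, at -0.30 (adjusted p = 0.000124). The 60S members had a median of -0.61 and the 40S members of -0.57.

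**Figure D2:**
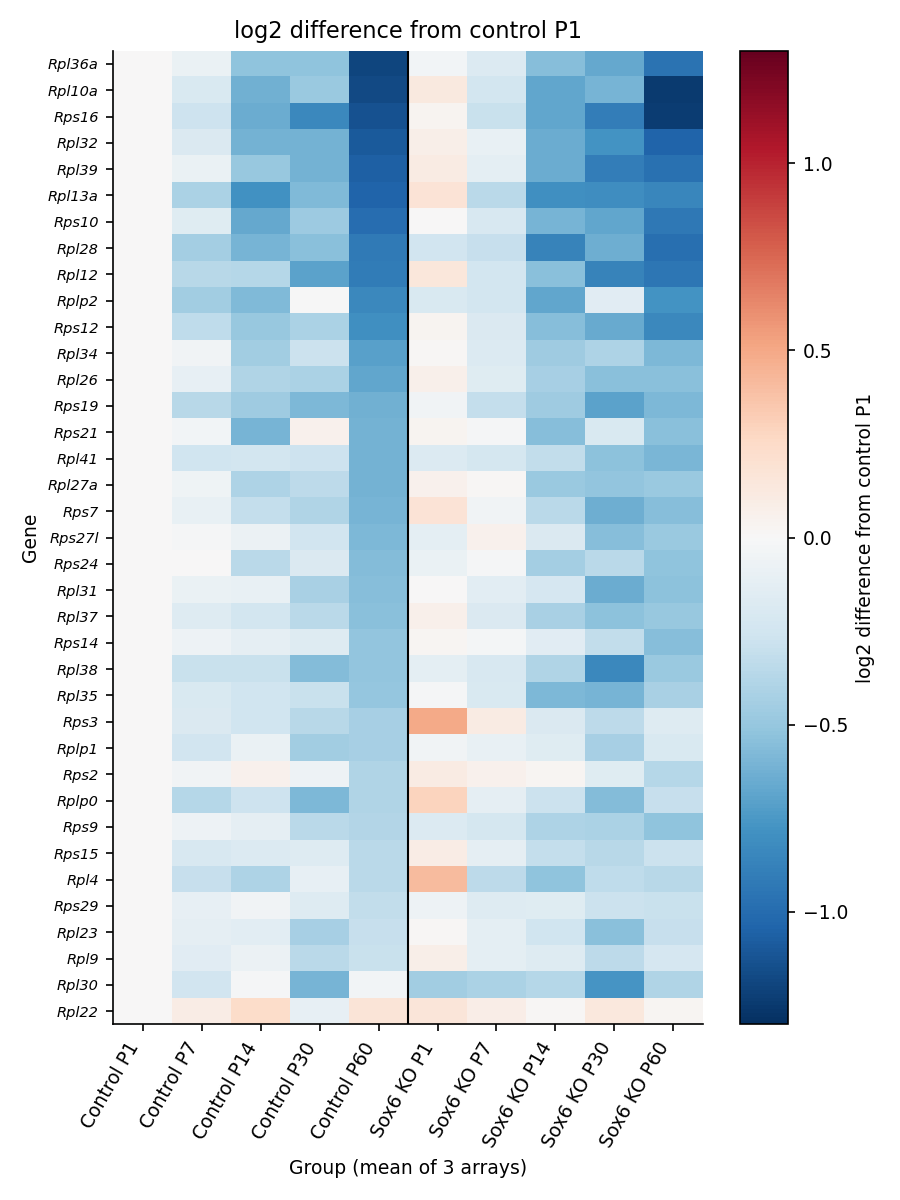
Group means of each member as the log2 difference from its control P1 mean (colour), with genes in rows in the order of their control P60 value and the 10 groups in columns. Blue deepens towards P60 for most members in both genotypes, while Rpl22 and Rpl30 at the foot do not follow this course.

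Rpl22 and Rpl30 were the members that were not called lower. Rpl22, a 60S protein that ribosomes can do without in mice, read 9.78, 9.84 and 9.78 at control P1, 9.65, 10.07 and 9.97 at P7, 10.21, 9.95 and 9.97 at P14, 9.62, 9.70 and 9.77 at P30, and 9.88, 10.06 and 9.96 at P60. It was lower at P30 than at P14 (log2 -0.35, adjusted p = 0.00379) and higher at P60 than at P30 (log2 0.27, adjusted p = 0.0332). Its P1 to P60 difference was 0.16 (95% interval -0.02 to 0.35, adjusted p = 0.126), and this turned to -0.13 when arrays were scaled to their medians instead. The paralog Rpl22l1, outside the rule, changed by -0.01 (adjusted p = 0.932).

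Rpl30, a 60S protein, read 10.31, 10.39 and 10.17 at control P1 and 10.37, 10.13 and 10.27 at P60, so the ages overlapped. It was lowest at P30, at 9.54, 9.69 and 9.82. Its spread between arrays was the widest of the members named here, with a standard error of 0.26 for any difference of 2 groups, and its P1 to P60 difference was -0.03 (95% interval -0.56 to 0.50). These probes were also the least like the rest in their course over the 10 groups: the median correlation with the other members was -0.02 for Rpl22 and 0.16 for Rpl30. The median over all 666 pairs of members was 0.79, with 639 pairs above 0, as a description over 10 group means that follow age.

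The fall came in steps, and the members called lower differed between steps. From control P1 to P7, 13 members were lower and 0 higher (12.5% and 12.1% of all probes), and from P7 to P14, 12 were lower and 0 higher (9.91% and 9.53%). From P14 to P30, 9 were lower and 5 higher (16.1% and 16.2%), a share of higher members near the background. The largest share moved last: from P30 to P60, 22 members were lower and 1 was higher (10.1% and 11% of all probes). The median changes of the 4 steps were -0.16, -0.07, -0.07 and -0.26. With median scaling they were -0.26, -0.18, 0.01 and -0.33, with 24 members lower at the first step and 5 at the third, so the sign at the third step and both counts depend on the scaling.

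The 12 members called lower from P7 to P14 were Rpl10a, Rpl13a, Rpl27a, Rpl32, Rpl34, Rpl36a, Rpl39, Rps7, Rps10, Rps16, Rps21 and Rps24. All 12 were called lower again from P30 to P60. None was called lower from P14 to P30, and Rpl13a, Rps21 and Rps24 were called higher there. The 9 members called lower from P14 to P30 were Rpl9, Rpl12, Rpl22, Rpl23, Rpl31, Rpl38, Rplp0, Rplp1 and Rps9. Of these, Rpl12 alone was called lower again from P30 to P60. A member without a call could still have a lower mean. Rps16 went from 12.53 to 12.34 from P14 to P30, and Rpl31 from 13.47 to 13.34 from P30 to P60. The P14 arrays enter both steps, so the lists are not independent within control hearts.

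The Sox6 KO hearts are other animals, and the share of members called lower at the same step there varied with the step. Of the 13 members lower from control P1 to P7, 7 (53.8%) were lower in KO hearts, where 12 were. Of the 22 lower from control P30 to P60, 8 (36.4%) were, and these were all the members lower in KO hearts at that step. As a description over the 37 genes, the changes in control and KO hearts had a Pearson correlation of 0.43 from P1 to P7. It was 0.83 from P7 to P14, 0.81 from P14 to P30 and 0.81 from P30 to P60. Over all tested probes the correlations at these steps, in order from P1 to P7 on, were 0.67, 0.79, 0.81 and 0.58. All 12 members of the P7 to P14 list were lower from P7 to P14 in KO hearts, where 21 of the 37 members and 13.4% of all probes were. Of these 12, Rpl39 and Rps7 were also lower from KO P14 to P30. Of the 9 members of the P14 to P30 list, 7 were lower from P14 to P30 in KO hearts, where 13 members and 18% of all probes were, the exceptions being Rpl22 and Rps9. Rpl12 and Rpl38 of this list were also lower from KO P7 to P14.

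**Figure D3:**
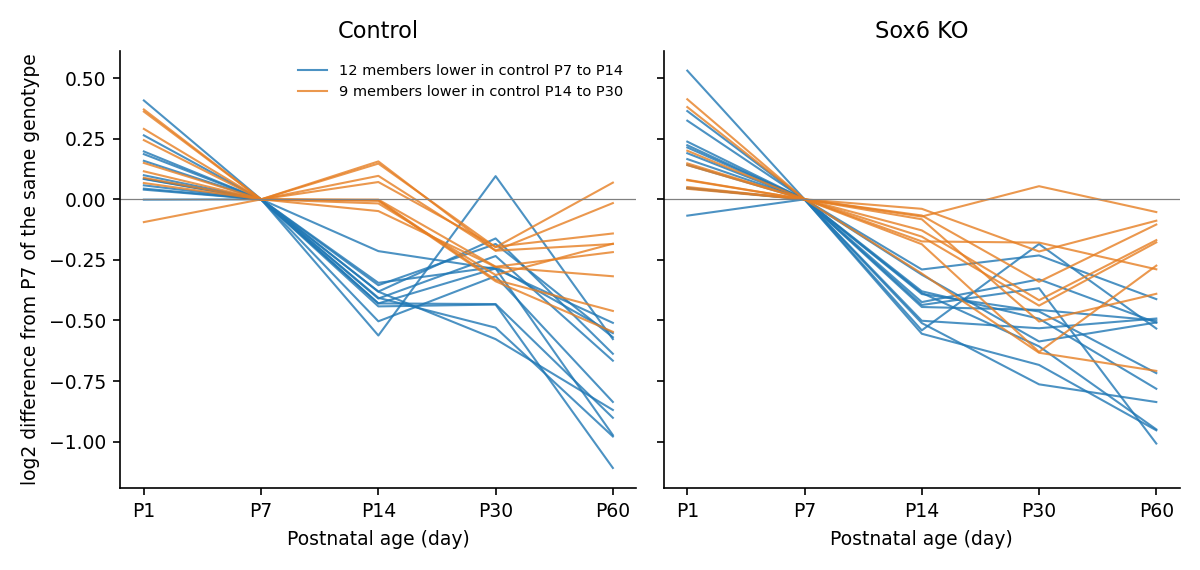
Course of the 12 members lower from control P7 to P14 (blue) and the 9 lower from control P14 to P30 (orange), as the log2 difference of each group mean from the P7 mean of the same genotype (y axis) by postnatal age (x axis), control at the left and Sox6 KO at the right. Blue lines drop to P14 in both panels and most orange lines drop to P30; the lists were chosen on the control arrays only.

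Rps21, a small 40S protein, had the largest called change of any member in control hearts at the second and the third step. Its control arrays read 13.72, 13.65 and 13.57 at P7, 13.22, 12.92 and 13.12 at P14, 13.72, 13.77 and 13.74 at P30, and 13.15, 12.95 and 13.12 at P60. Every P14 and P60 array was below every P7 and P30 array. The steps were -0.56 (adjusted p = 3.69e-06), 0.66 (adjusted p = 1.05e-07) and -0.67 (adjusted p = 3.37e-07) on the log2 scale. In KO hearts they were -0.54, 0.36 and -0.35, each called.

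Rplp2 also rose from P14 to P30. Its control arrays read 13.56, 13.52 and 13.35 at P14, 13.92, 14.16 and 14.06 at P30, and 13.14, 13.28 and 13.22 at P60. The rise was 0.57 (adjusted p = 0.000498) and the later fall 0.83 (log2 -0.83, adjusted p = 1.35e-05), and in KO hearts the steps were 0.54 and -0.63. At control P1 it read 13.58, 14.38 and 14.20, so that 1 of the 3 arrays lay at the P7 level. Its stalk partner Rplp1 went the other way from P14 to P30, by -0.37 in control (adjusted p = 0.000884) and -0.27 in KO hearts (adjusted p = 0.00917).

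Rpl4, a large 60S protein that lines the exit tunnel, rose from P14 to P30 in both genotypes, by 0.29 in control and 0.19 in KO hearts. Rpl13a and Rps24 rose in control hearts at this step, by 0.22 and 0.17, and changed by -0.01 and 0.09 in KO hearts, where they were not called. The difference between genotypes at this step was called for Rpl22 alone (log2 0.47, adjusted p = 0.0485), where 0.778% of all probes were called higher and 1.16% lower.

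In Sox6 KO hearts the whole decline had about the same size as in control hearts. From KO P1 to P60, 34 members were lower and 0 higher, where 28.6% of all probes were lower and 29.9% higher, and the median change was -0.57. With the 1.5-fold condition 16 were lower, against 11.1% of all probes. All 34 were among the 35 lower in control hearts. The remaining member, Rplp1, read 14.93, 15.03 and 15.14 at KO P1 and 14.78, 14.99 and 14.90 at P60, with overlapping arrays (log2 -0.15, adjusted p = 0.122). In the test of unequal change between genotypes from P1 to P60, Rpl4 was called (log2 -0.42, adjusted p = 0.00559), 1 of the 37 members against 5.13% of all probes lower and 4.32% higher.

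The calls in KO hearts were spread over the steps as follows. From KO P1 to P7, 12 members were lower and 0 higher (13.3% and 12.5% of all probes). From KO P7 to P14, 21 were lower and 0 higher (13.7% of all probes higher), with a median of -0.28. From KO P14 to P30, 13 were lower and 3 higher (18.7% of all probes higher). From KO P30 to P60, 8 were lower and 4 higher (8.83% and 9.31%), with a median of -0.04, and 4 were lower without KO P30 replicate 2. The 4 members higher at this last step were Rpl23, Rpl38, Rplp0 and Rplp1, all from the list called lower from control P14 to P30. This share is near the background, and 2 members were called without KO P60 replicate 3.

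The last step was tested for a difference between genotypes. The KO change from P30 to P60 was above the control change for 33 of the 37 members, with a median difference of 0.21 that exceeded the value of 88.5% of all probes. This equals the genotype difference at P60 minus that at P30, so it reuses the arrays of the comparisons within ages given below. The members also share these arrays and are not independent observations. The test called 2 members, Rpl13a (0.43, adjusted p = 0.0339) and Rpl35 (0.39, adjusted p = 0.0377), where 1.29% of all probes were called higher and 1.08% lower. From P7 to P14 the KO change was below the control change for 32 members, with a median difference of -0.11 and 0 members called, where 0.583% of all probes were called lower and 0.411% higher. At an unadjusted p under 0.05 there were 17 members at the last step (13.8% of all probes) and 4 from P7 to P14 (9.37% of all probes).

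Genotypes were then compared within each age, to ask whether these mRNAs differed between Sox6 KO and control hearts. Controls carried no floxed Sox6 alleles, so other differences between the mouse lines were not separated from loss of Sox6. At P1 the median KO minus control difference was 0.03, with 4 members higher and 0 lower (8.82% of all probes higher and 7.91% lower). At P7 it was 0.03, with 0 called (2.38% of all probes lower and 3.02% higher) and 3 members at an unadjusted p under 0.05 (16.5% of all probes). At P14 it was -0.08, with 2 lower and 0 higher (1.13% and 1.47%). At P30 it was -0.16, with 5 lower and 0 higher (3.69% and 3.16%), and at P60 it was 0.04, with 0 called (2.39% and 2.13%) and 4 members at an unadjusted p under 0.05 (16.3% of all probes).

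**Figure D4:**
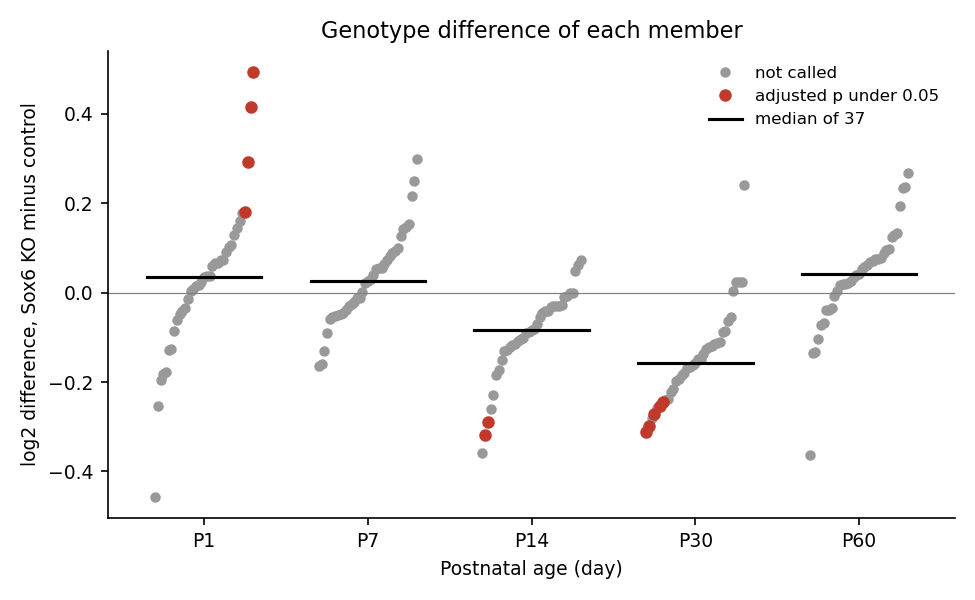
Sox6 KO minus control log2 difference of each member (points, sorted by value within an age) by postnatal age; red points were called at an adjusted p under 0.05, grey points were not, and the bar is the median of the 37 members. The medians are 0.03, 0.03, -0.08, -0.16 and 0.04 from P1 to P60.

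At P30 the mean member signal was 12.83 to 12.92 on the control arrays and 12.71 to 12.77 on the KO arrays, without overlap. At P14 it was 12.91 to 12.97 and 12.85 on each KO array, and at the other ages the ranges overlapped. Of the 37 members, 32 were below 0 in the difference, and the arrays of the genotypes did not overlap for 22 members, against 24.1% of all probes. In the 22, Rpl22 was the member that was higher in KO hearts.

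The called members at P30 were Rpl35, Rpl38, Rps27l, Rps21 and Rps7. Rpl35, a 60S protein beside the exit of the tunnel, read 13.58, 13.61 and 13.72 in control and 13.39, 13.41 and 13.19 in KO hearts (1.24-fold lower, adjusted p = 0.00669). Rpl38, which is needed for patterning of the mouse axial skeleton, read 14.28, 14.30 and 14.30 in control and 14.06, 14.06 and 13.95 in KO hearts (1.21-fold lower, adjusted p = 0.00789).

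Rps27l read 12.93, 12.91 and 12.99 in control and 12.56, 12.80 and 12.56 in KO hearts at P30 (1.23-fold lower, adjusted p = 0.0228). Rps21 was 1.19-fold lower and Rps7, a 40S protein that also binds Mdm2, 1.18-fold lower. None of the 5 had overlapping arrays. The number called at P30 depended on the background and scaling: it was 13 with median scaling and 0 with background correction by normexp, and 1 without control replicate 3 or without KO replicate 3.

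Several cell type marker lists differed at P30 as well. The summed signal of the 3 measured of 7 erythroid markers was 61084 to 92407 in control and 39928 to 53898 in KO hearts. That of the 5 of 8 macrophage markers was 5509 to 6877 and 4069 to 4228, that of the 8 of 9 endothelial markers 7813 to 8054 and 5663 to 6905, and that of the 9 of 10 cardiomyocyte markers 270118 to 287848 and 296485 to 299595. That of the 6 of 8 fibroblast markers was 22511 to 24407 and 19577 to 20903. None of these ranges overlapped. At P7, where 0 members were called, several sums did not overlap either. The endothelial sum there was 13335 to 13916 in control and 10869 to 12226 in KO hearts. The macrophage sum was 1999 to 2669 and 1566 to 1652, and the fibroblast sum 22466 to 28611 and 19989 to 20900. The cardiomyocyte sum was 251338 to 282882 and 242146 to 250102. That of the 2 measured of 4 atrial markers was 3876 to 4563 and 8029 to 19510. The erythroid sums overlapped at P7. The part of these sums in the ribosomal protein differences was not tested.

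Rpl35 was also lower in KO hearts at P14, where it read 13.60, 13.73 and 13.69 in control and 13.47, 13.21 and 13.37 in KO hearts (log2 -0.32 ± 0.07 SE, adjusted p = 0.0113). Rps9, a 40S protein of the early assembling body domain, read 13.71, 13.77 and 13.82 in control and 13.50, 13.44 and 13.48 in KO hearts (1.22-fold lower, adjusted p = 0.0149). The differences of Rps9 at P1, P7, P30 and P60 were -0.18, -0.16, -0.06 and -0.14, none of them called. Without control replicate 2 or KO replicate 2 at P14, 0 members were called at this age. Marker sums that did not overlap at P14 were the endothelial (13069 to 13417 in control, 10971 to 11816 in KO hearts), the macrophage (2467 to 2851 and 3324 to 3505) and that of the 6 measured of 8 fibroblast markers (22611 to 25505 and 25932 to 27754). Their part in the P14 differences was not tested.

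At P1 the 4 members called were higher in KO hearts. This share (10.8%) was near the background of 8.82% of all probes, and 3 members were called lower when control replicate 1 was left out. Rps3, a 40S protein at the mRNA entry that also acts in DNA repair, read 12.79, 13.15 and 12.75 in control and 13.44, 13.39 and 13.34 in KO hearts, a 1.41-fold difference (adjusted p = 0.00102). Rpl4 read 9.560, 9.614 and 9.572 in control and 9.916, 10.001 and 10.077 in KO hearts, a 1.33-fold difference (adjusted p = 9.44e-05). Rplp0 was 1.22-fold higher with overlapping arrays (adjusted p = 0.0179), and Rps7 1.13-fold higher (adjusted p = 0.0482). With normexp 2 members were called at P1, and also without control replicate 3, KO replicate 2 or KO replicate 3. The cardiomyocyte marker sum at P1 was 224453 to 254786 in control and 208241 to 217579 in KO hearts, without overlap, and that of the 2 measured of 4 atrial markers was 30040 to 74795 and 77731 to 82135, also without overlap. The 2 atrial markers were Myl4 and Nppa. The study describes Nppa as a gene considered to be of fetal type in the heart, so this sum need not read atrial tissue. The part of the marker sums in the P1 differences was not tested.

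In the mean over the 5 ages, Rps3 was higher in KO hearts (log2 0.23, adjusted p = 0.000454) and so was Rplp0 (0.13, adjusted p = 0.018), while Rps9 (-0.17, adjusted p = 0.000241) and Rpl35 (-0.11, adjusted p = 0.0162) were lower. These are 2 members each way, against 7.46% of all probes higher and 7.89% lower. Rpl30 was below control in its mean at every age, by 0.46, 0.16, 0.36, 0.16 and 0.36 on the log2 scale from P1 to P60, and was called at none. Its KO arrays at P14 read 10.20, 9.13 and 10.41, a spread wider than the difference from the control arrays at 10.34, 10.06 and 10.42.

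The precision sets what could have been seen. For the 37 members the 95% interval of a difference between 2 groups reached a median of 0.16 to either side on the log2 scale. The interval of the genotype difference lay within 1.5-fold for 36 members at P60 and for 36 at P7. The remaining member was Rpl30 at both ages, with intervals of -0.89 to 0.16 at P60 and -0.69 to 0.37 at P7.

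**Figure D5:**
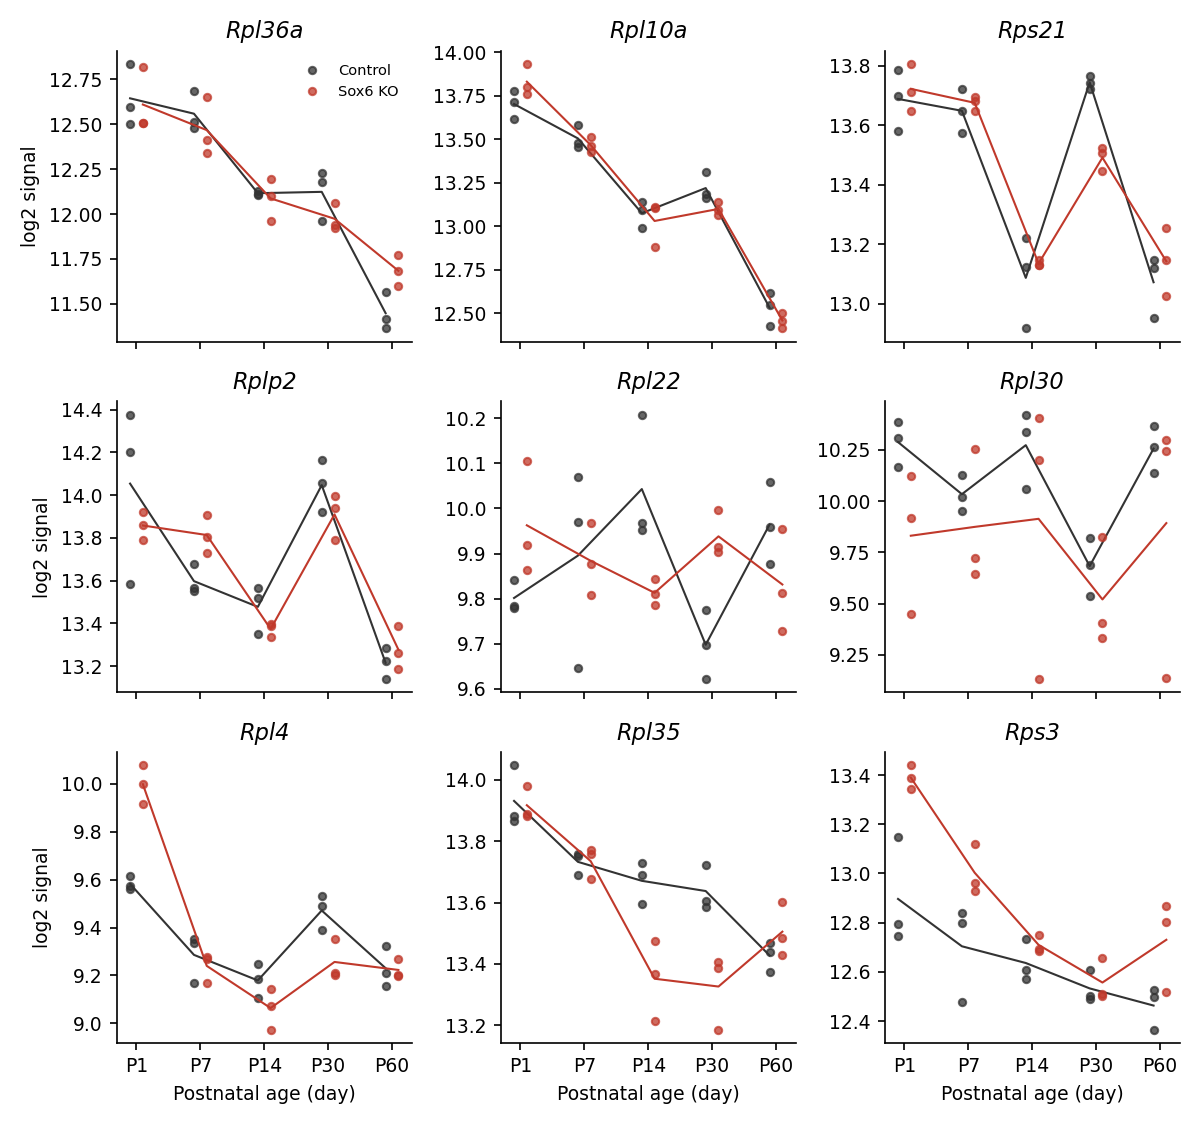
log2 signal (y axes, each on its own range) on each array by postnatal age (x axis) for 9 members; points are arrays and lines join the means of 3 arrays, control in black and Sox6 KO in red. Rpl36a and Rpl10a fall from P1 to P60, Rps21 and Rplp2 dip at P14 and rise at P30, and Rpl4 and Rps3 start higher in Sox6 KO hearts.

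Whether the genotype difference changed with age was tested directly. The F test called 6 of the 37 members, against 13.8% of all probes, so the share of members was near the background. These were Rpl4 (adjusted p = 0.000364), Rpl35 (0.011), Rps7 (0.0135), Rpl13a (0.0357), Rpl22 (0.0382) and Rpl38 (0.0444). Rps7 was 0.18 above control at P1 and 0.24 below it at P30 on the log2 scale. From P1 to P7, Rpl4 fell by 0.76 in KO and by 0.30 in control hearts (log2 -0.76 and -0.30), a difference of -0.46 (adjusted p = 0.00508), the 1 member called at this step where 2.51% of all probes were called lower and 2.14% higher. Over the ages of 1 genotype, the F test called 36 members in control hearts (69.6% of all probes) and 35 in KO hearts (74.4%).

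Other genes of the translation apparatus were compared over the same span, where 27.2% of all probes were lower and 27.6% higher. Of 12 elongation factors and other TOP mRNAs 11 were measured, of which 5 were lower and 2 higher at control P60 than at P1, with a median of -0.22. Eef1a1, the elongation factor of most cells, fell by 1.89 (log2 -1.89, adjusted p = 1.08e-17), while Eef1a2, its muscle and nerve paralog, rose by 1.86 (adjusted p = 3.2e-14). Pabpc1, the poly(A) binding protein, fell by 1.29 (log2 -1.29). Eef1a1 and Pabpc1 were also the 2 genes of this list called lower in KO hearts at P30, where 3.69% of all probes were lower. Both lay at the threshold, with a limma adjusted p of 0.0496 for Pabpc1 and of 0.05 after rounding for Eef1a1. At P1, Eef1a1 was called lower in KO hearts and Pabpc1 and Nap1l1 were called higher.

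Of 35 initiation factors 24 were measured, with 13 lower and 4 higher and a median of -0.25. Eif5a (log2 -1.03), which eases stalled peptide bonds, and the cap-binding Eif4e2 (-1.19) fell, and Eif4e3, another cap-binding protein, rose (1.43). Of 47 ribosome biogenesis genes 29 were measured, with 9 lower and 8 higher and a median of -0.04, shares near those of all probes. The snoRNP proteins Nop58 (-0.99) and Nhp2 (-0.96) fell, while Pes1 (0.61), which processes the 60S precursor, and Polr1d (0.61), a subunit shared by RNA polymerases I and III, rose.

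The mitochondrial ribosomal proteins, which build a separate ribosome for the mitochondrial genome, had more members called higher than lower, a split that turned with the scaling. Of 68 measured, 30 were higher and 12 lower at control P60 than at P1, with a median of 0.16, led by Mrpl14 (1.01). With median scaling the split was 16 higher and 20 lower. Of 15 regulators of ribosomal protein mRNA 7 were measured, with 2 lower and 2 higher and a median of 0.08, shares near those of all probes. The mTORC1 target Eif4ebp1 (-1.49) and the mTORC1 activator Rheb (-0.46) fell, and Tsc2 (0.66), which restrains mTORC1, and Larp1 (0.26), which binds the TOP run, rose. Of 10 ribosomal protein genes outside the rule 5 were measured: Rpl3 fell (-1.34), its muscle paralog Rpl3l rose (5.53) and Rpl22l1, Rpl36al and Rpl7l1 were not called.

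Cell type markers moved over the same ages. The summed signal of the 8 endothelial markers was 8785 to 9565 in control hearts at P1, rose to between 13335 and 13916 by P7 and was 6056 to 6443 at P60. That of the 3 erythroid markers was 91919 to 98512 at P1 and 59225 to 75744 at P60, and that of the 5 macrophage markers 1327 to 1485 and 3844 to 3902. The 4 measured of 6 smooth muscle and pericyte markers summed to between 20647 and 25564 at P1 and between 5005 and 5832 at P60, the 2 atrial markers to between 30040 and 74795 and between 3014 and 6704, and the 6 fibroblast markers to between 12304 and 14927 and between 17735 and 18668. The 9 cardiomyocyte markers summed to between 224453 and 254786 at P1 and between 276351 and 292929 at P60. A sum weighs its brightest probes most, and some lists were split from control P1 to P60. Of the 6 fibroblast markers, Col1a1, Col3a1 and Dpt were called lower and Dcn and Lum higher, with a median log2 change of -0.04. Of the smooth muscle and pericyte markers, Acta2 and Notch3 were called lower and Rgs5 higher. Of the cardiomyocyte markers, Actc1 was called lower and Atp2a2, Mb, Myh6, Myl2 and Ryr2 higher. No member of these lists was undetected on all 3 arrays of a group. No named probe read the 6 markers of dividing cells. The part of these shifts in the fall of the ribosomal proteins was not tested.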

How the data were processed

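The authors deposited a table of raw intensity on the linear scale, exported with IlluminaExpressionFileCreator, and a processed table of quantile normalized intensity for 6784 probes, which holds all 37 members. The detection p-value columns are empty. Of 46255 rows, 974 are control rows, and the range of their IDs marks 936 of these as negative controls. The 17997 probes whose 3 arrays all passed the mean plus 2 SD of these in some group were log2 transformed, quantile normalized and fitted with limma 3.58.1 in R 4.3.3, with 1 mean per group, 20 residual and 6.72 prior degrees of freedom. Adjusted p-values are Benjamini-Hochberg values over all probes of a comparison. The fit was tested on simulated data. With 3 arrays a group, their number limits the precision.

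The members and all gene lists were chosen with earlier results of these data known. Symbols come from the platform annotation of the probes in the processed table, of which 6074 have 1 symbol and 3 have several, and each list takes the brightest probe of a gene. Members named with values were the 8 largest and 4 smallest falls from control P1 to P60, those not called lower, up to 4 called each way between genotypes at an age, the 3 brightest and 3 dimmest, the P stalk and other names fixed by role, up to 3 called each way between neighbouring ages and up to 6 in the test of effects that differ between ages. Of other lists up to 4 genes were named. Rpl26, Rpl27a, Rps24 and the members of the 2 step lists were named after their values were seen. A further 16 probes are named as ribosomal proteins only in a supplementary table of genes the study had selected for variation on these arrays, so they serve as an alternative only. Other alternatives were median scaling, normexp with an offset of 16, no filter, the authors' table, the arrays of the compared groups only, a replicate block and leaving out each array. Columns of the authors' own comparisons were not used. No source used here gives slides or scan batches. The replicate numbers come from the sample names, and the deviations of same-numbered arrays of the 2 genotypes correlated between -0.23 and 0.11, with 1 of 15 pairs above 0.1, so the numbers do not pair the animals. The methods state 3 biological replicates per age and also a triplicate hybridization of each. The 3 arrays of a group were taken as its biological replicates. Whether each is a separate animal is not stated, so p-values measure the spread between these arrays, which may be in part technical.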

Additional observations from a re-analysis of the deposited data

Results flagged for a closer look

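The KO effect of 6 members differed between ages, or between neighbouring ages, by limma's test of the difference itself. For Rpl4 the change from P1 to P7 was lower in KO than in control hearts by 0.46 (log2 -0.46), the change from P1 to P60 by 0.42 (log2 -0.42), and the F test over ages had an adjusted p of 0.000364. For Rpl22 the change from P14 to P30 was higher in KO hearts by 0.47, and the F test had an adjusted p of 0.0382. For Rpl13a and Rpl35 the change from P30 to P60 was higher in KO hearts by 0.43 and 0.39, with F tests at adjusted p of 0.0357 and 0.011. For Rps7 and Rpl38 the F test alone was passed, at adjusted p of 0.0135 and 0.0444. The share of members that passed the F test was near that of all probes, 13.8%. Groups of 3 arrays are too small for a test of single outlying arrays.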

How the results depend on the processing

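The counts of members lower from P1 to P60, 35 in control and 34 in KO hearts, stayed the same when each array of the compared groups was left out in turn, and no alternative gave a member higher there. With median scaling, which moved the median of all probes from P1 to P60 by 0.15 in control and 0.14 in KO hearts, the members' medians were -0.79 and -0.85. The member median turned to 0.01 from control P14 to P30 and to -0.02 between genotypes at P60, and Rpl22 turned to -0.1339. The called probes that were higher went from 50.4% to 61.9% for control P1 to P60, from 51.3% to 39.9% for KO P30 to P60, and between genotypes from 56.5% to 42.9% at P14, 46.1% to 31.6% at P30 and 47.2% to 29.1% at P60. Median scaling called 24 members lower from control P1 to P7, 5 lower from P14 to P30 and 0 higher from P30 to P60. In KO hearts it called 33 lower from P7 to P14, 7 lower from P14 to P30 and 2 higher from P30 to P60. Between genotypes it called 1 higher at P7, 4 lower at P14 and 13 lower at P30, and the F test called 11. From control P1 to P60 it called 3 genes lower among ribosomal proteins outside the rule, 1 higher among elongation factors, 14 lower and 5 higher in biogenesis, 20 lower and 16 higher among mitochondrial ribosomal proteins and 1 higher among regulators. With normexp 3 members were higher from control P14 to P30 and 0 from P30 to P60. In KO hearts 6 were lower from P1 to P7, 8 from P14 to P30 and 4 from P30 to P60, with 2 higher there. Between genotypes 2 were higher at P1, and 0 lower at P14 and P30, and the F test called 1. The authors' table gave 1 lower at P14 and 3 at P30. With the arrays of the compared groups only, 7 were lower from control P1 to P7 and 2 higher from P30 to P60, 5 were lower and 1 higher from KO P30 to P60, and between genotypes 1 was higher at P1, 1 higher at P7 and 3 lower at P30. With the 16 added probes, chosen after seeing the data, 25 were lower from control P7 to P14, 14 lower and 8 higher from P14 to P30 and 2 higher from P30 to P60. In KO hearts 34 were lower from P7 to P14, 8 higher from P14 to P30 and 14 lower from P30 to P60, and between genotypes 1 was lower at P60. The cause of these shifts was not tested.

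Leaving out 1 array at a time, 3 to 4 members were higher from control P14 to P30 (3 without P14 replicate 2 or 3 or P30 replicate 2 or 3) and 0 to 1 from P30 to P60 (0 without P30 replicate 1 or 2 or P60 replicate 2 or 3). In KO hearts 0 to 1 was higher from P1 to P7 (1 without P1 replicate 1), 8 to 11 lower from P14 to P30 (8 without P14 replicate 1 or P30 replicate 2 or 3), and from P30 to P60 4 to 7 lower (4 without P30 replicate 2) and 2 to 4 higher (2 without P60 replicate 3). Between genotypes 2 to 3 were higher and 0 to 3 lower at P1 (3 lower without control replicate 1), 0 to 2 lower at P14 (1 without control replicate 3), 1 to 4 lower at P30 (2 without control replicate 2, 3 without KO replicate 1) and 0 to 1 higher at P60 (1 without KO replicate 1). The F test called 3 to 8 (3 without control P30 replicate 2 or KO P30 replicate 1). The control P1 to P60 change of Rpl30 lay between -0.0919 (without P1 replicate 3) and 0.0285 (without P60 replicate 2), and was 0.0176 without P1 replicate 2, none of them called. With the replicate number as a block, 35 members were lower from control P1 to P60 and no count of members changed beyond 1.5 times. Every member has 1 probe, so the choice of probe per gene at P1 could not be tried. The Rplp0 probe lies nearest the detection limit.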
